A study of Rattus norvegicus with 24 samples.

Results

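The region described here is the first 6 Mb of rat chromosome 20 in the genome build rn6, the interval that carries the rat major histocompatibility complex (MHC). Its members are the INO80 binding peaks whose summit, the base of highest read pileup in a peak, lay between positions 1 and 6000000. The cocaine list had 559 such peaks and the saline list had 7, so 566 of the 74075 peaks deposited in both lists were members. The rest of chromosome 20 had 1041 cocaine peaks and 39 saline peaks and served as the comparison.

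INO80 occupancy was measured in the nucleus accumbens, a part of the ventral striatum in the reward circuit of the brain, by chromatin immunoprecipitation with sequencing (ChIP-seq). The 24 libraries were made from rats of a cocaine arm and a saline arm, with immunoprecipitated chromatin and sonicated input of both arms, in 6 libraries per group that came as 3 numbered samples with 2 runs each. Tissue of the cocaine arm was taken on day 30 of withdrawal from extended cocaine access, and the labels repeat that protocol text for the saline arm. The sources used here do not say if a numbered sample was a single animal or a pool, nor the strain, sex or age of the rats. The authors pooled the 3 ChIP samples and the 3 inputs of a treatment before peak calling, which left 1 list per treatment. No value below therefore has a replicate error, no difference between cocaine and saline was tested, and a pileup or fold of one list set beside that of the other is no measure of change.

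INO80 is the motor ATPase of a large chromatin remodelling complex that slides nucleosomes and acts at promoters, at replication forks and at DNA breaks. The MHC, named RT1 in the rat, holds class I and class II genes that present peptides to T cells, class III genes of complement and inflammation, and genes with no immune role. Its class I and class II genes arose by repeated duplication, so that neighbouring genes and the sequence around them can be nearly identical. In brain tissue, class I molecules are known from neurons and glia and class II molecules mainly from microglia.

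The peak lists name no genes, and the RefSeq gene table used here is of the assembly GRCr8, so no peak was assigned to a gene. In that table all 67 genes with an RT1 symbol lie on chromosome 20. The order of marker genes along it runs from Gabbr1, a subunit of the metabotropic GABA receptor, and Mog, a myelin glycoprotein, past RT1-M10-1, Ddr1, RT1-CE1, Tnf, Hspa1a, the complement gene C4a and Notch4. It continues with the class II genes RT1-Da and RT1-Ba, with the peptide transporter genes Tap2 and Tap1 and the immunoproteasome genes Psmb8 and Psmb9, and then with Brd2, the classical class I genes RT1-A2 and RT1-A1, and Tapbp. Which of the peaks below lie at which of these genes was not analysed here, and no peak sequence is shown because no rn6 sequence was used.

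Cocaine peaks were crowded into this end of the chromosome. The interval is 10.7% of chromosome 20, measured to the end of its last peak, and it had 34.9% of the chromosome's cocaine peaks (Wilson 95% interval 32.6 to 37.3). That is 93.2 peaks per Mb against 20.7 per Mb in the rest of the chromosome, a ratio of 4.49 (4.05 to 4.98). Such intervals allow for counting error alone, and peaks that stand next to each other are not independent. The cocaine peaks covered 82.4 kb, or 1.37% of the interval, against 0.270% of the rest. Merging peaks less than 500 bp apart left 271 cocaine peaks in the interval and lowered the density ratio to 2.88.

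Against windows of the same length, the interval was among the densest of the genome but not the densest. Of 453 consecutive windows of 6 Mb on placed chromosomes, the median window had 102 cocaine peaks and the fullest had 823. The interval ranked 13th, at 5.48 times the median. The other 8 windows of chromosome 20 had 39 to 243 peaks, and the best of them ranked 84th. Saline peaks were too sparse for such a ranking, since 228 of the windows had none.

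**Figure D1:**
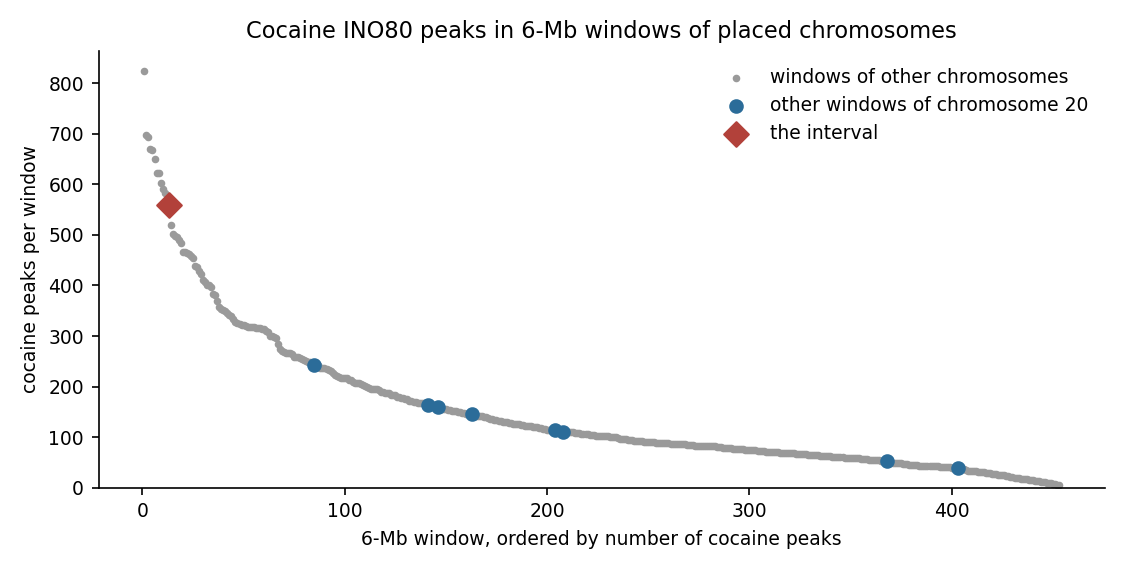
Cocaine INO80 peaks in each 6-Mb window of the placed chromosomes (y axis, number of peaks), with windows ordered from fullest to emptiest (x axis). The diamond is the interval with 559 peaks, and the large circles are the other 8 windows of chromosome 20, which had 39 to 243 peaks.

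Within the interval most peaks lay in its distal part. The first to the sixth megabase had 12, 28, 19, 153, 119 and 228 cocaine peaks. The sixth megabase ranked 13th among 2768 megabases of the genome, whose median was 13 peaks and whose maximum was 286. The next fullest, the fourth and the fifth megabase, ranked 52nd and 93rd, while the first 3 ranked 763rd to 1411th. On chromosome 20 alone, the last 3 megabases of the interval were the 3 fullest. Divided at 3 Mb, a point chosen after the values were seen, the last 3 Mb had 500 peaks, 167 per Mb, and the first 3 Mb had 59 peaks, 19.7 per Mb, which is close to the 20.7 per Mb of the rest of the chromosome. Ending the interval at 5 Mb, which drops the sixth megabase, left 331 peaks and a density ratio of 2.67.

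The edge of the interval did not cut through a cluster. The last cocaine summit inside was at position 5994466, with a pileup of 11 fragments and a fold of 5.52, and the first outside was at 6049099, with the same pileup and a fold of 5.25.

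In bins of 100 kb the counts were uneven. The 60 bins had a median of 2 cocaine peaks and a maximum of 65, and 21 bins (35.0%, 24.2 to 47.6) had none. In the rest the 501 bins had a median of 0 and a maximum of 38, and 295 (58.9%, 54.5 to 63.1) had none. Bins of 20 peaks or more made up 11 of 60 in the interval (18.3%) and 4 of 501 in the rest (0.798%). The 5 fullest bins of the interval held 242 peaks, or 43.3% of all, and the 10 fullest held 67.4%. Of the 21 empty bins 17 lay in the first 3 Mb, and of the 11 bins with 20 peaks or more 10 lay in the last 3 Mb.

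The fullest bin, chr20:5100001-5200000, had 65 cocaine peaks and no saline peak, with a median pileup of 37 fragments and a median fold of 11.3. The next, chr20:3300001-3400000, had 57 cocaine peaks and 1 saline peak, with a median pileup of 14 and a median fold of 6.90. These leading bins differed in strength as well as in number: the peaks of the first were the taller ones. The bins chr20:5500001-5600000, chr20:4500001-4600000 and chr20:5400001-5500000 followed with 41, 40 and 39 cocaine peaks and no saline peak, and with median pileups of 27, 19 and 17. The longest stretch with no cocaine peak was chr20:955861-1678411, 723 kb long. The next longest were chr20:155450-695845, of 540 kb, and chr20:2204652-2501523, of 297 kb. All 3 lay in the first 3 Mb, and none contained a saline peak.

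**Figure D2:**
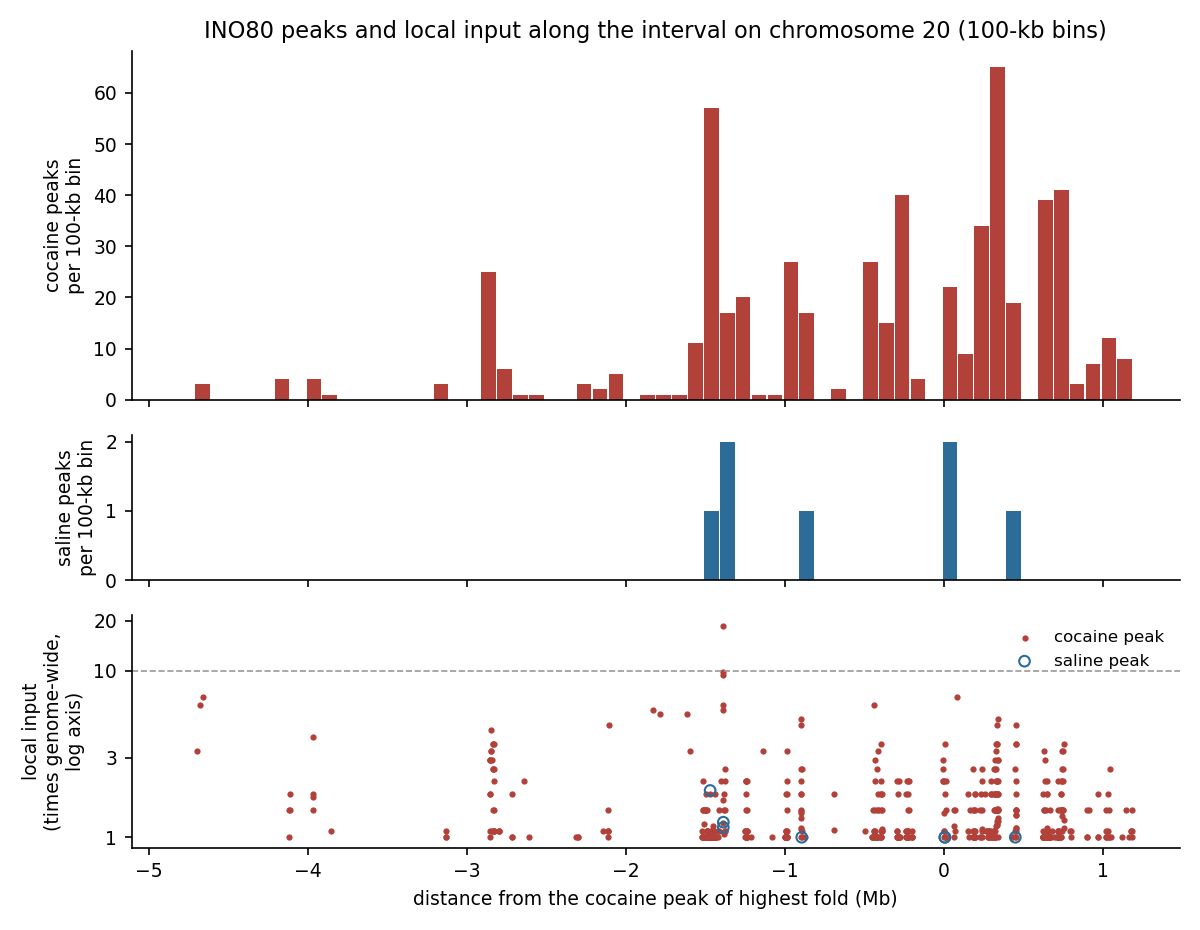
Cocaine peaks (top) and saline peaks (middle) per 100-kb bin of the interval, and the local input background at each peak in multiples of the genome-wide level on a log axis (bottom, dashed line at 10). The x axis is the distance in Mb from the cocaine peak of highest fold. The fullest bin has 65 cocaine peaks, the 7 saline peaks fall in 5 bins, and 1 cocaine peak lies above the dashed line.

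Single cocaine peaks of the interval were somewhat taller and longer than those of the rest of the chromosome. The pileup counts the ChIP fragments that overlap the summit, and its median was 22 (95% interval of the median 21 to 24) in the interval, 19 (18 to 20) in the rest and 19 over the whole list. The fold, the authors' peak caller's ratio of pileup to local input, had a median of 9.07 (8.51 to 9.63) in the interval and 7.44 (7.36 to 7.82) in the rest. Peak length had a median of 119 bp (109 to 126) against 98 bp (92 to 103). Folds of 15 or more were reached by 69 of the 559 peaks (12.3%, 9.87 to 15.3) and by 64 of the 1041 in the rest (6.15%, 4.84 to 7.77). Long peaks, of 500 bp or more, numbered 10 (1.79%), close to the 1.85% of the whole cocaine list. Of the 559 peaks, 473 (84.6%, 81.4 to 87.4) had another cocaine peak less than 1 kb away, against 50.6% in the rest and 61.3% in the whole list.

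The 10 cocaine peaks of highest fold lay in only 4 clusters, and none overlapped a saline peak. The leading pair, chr20:4812485-4812700 and chr20:5128479-5128582, had the same pileup of 49 and the same fold of 23.0, which ranked 191st in the whole cocaine list of 71723. The peak chr20:4810277-4810768 stood next to the first of them and reached a fold of 22.3 on a pileup of 58. In another cluster, chr20:3820792-3820900 had a summit of 50 fragments and a fold of 22.3. Its neighbour chr20:3821404-3821487 had a fold of 20.2 and a pileup of 43. In the one leading cluster of the first 3 Mb, chr20:1974038-1974270 reached a fold of 21.9 and chr20:1976753-1976859 a fold of 20.6, with pileups of 49 and 55. The other 3, chr20:5126266-5126427, chr20:5145194-5145480 and chr20:5136763-5137130, all lay in the cluster of the fullest bin and had folds of 21.4, 21 and 20.7. All 10 stood on ordinary input, at 1.0 to 1.46 times the genome-wide level. The rest of the chromosome reached a higher fold, 27.1, and had 3 peaks above the highest fold of the interval.

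Peaks less than 10 kb apart were joined into clusters to describe the crowding. The interval had 60 clusters, of which 23 were single peaks, 18 had 2 to 9 peaks and 19 had 10 or more. Those 19 large clusters held 466 of the 559 cocaine peaks (83.4%) within 502 kb, or 8.37% of the interval. The rest of the chromosome had 20 large clusters with 316 of its 1041 peaks (30.4%), and placed chromosomes as a whole had 47.7% of their peaks in such clusters. Large clusters thus occurred at 3.17 per Mb in the interval and at 0.398 per Mb in the rest. Within them, peaks covered 14.2% of the sequence in the interval and 7.15% in the rest.

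The cluster with most peaks, chr20:3290733-3381639, had 63 peaks over 90.9 kb and a median fold of 7.36. The second, chr20:5125381-5155313, was denser, with 56 peaks over 29.9 kb, a median pileup of 37.5 and a median fold of 12.0. Peaks covered 34.6% of its length, against 8.16% in the first. The clusters chr20:5519046-5565510, with 40 peaks over 46.5 kb, and chr20:5432880-5491393, with 39 peaks over 58.5 kb, had median folds of 9.21 and 7.82. The cluster chr20:3813269-3828461 had 27 peaks in 15.2 kb, with a median fold of 7.82 and a highest fold of 22.3. Number of peaks and strength of peaks therefore did not go together among the 5 largest clusters.

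**Figure D3:**
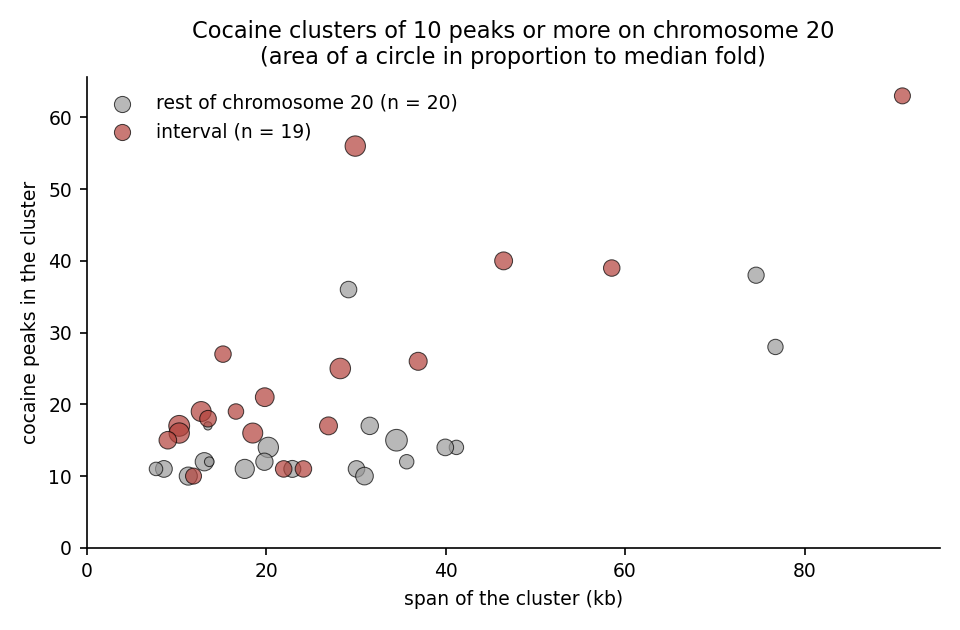
Each circle is a cocaine cluster of 10 peaks or more on chromosome 20, by its span in kb (x axis) and its number of peaks (y axis), with area in proportion to its median fold. The 19 clusters of the interval include the 4 with most peaks, led by one of 63 peaks over 90.9 kb and one of 56 peaks over 29.9 kb.

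Local input background was low at nearly all members. It is given here as a multiple of the genome-wide level, and the caller never lets it fall below 1. The headers set windows of 1000 and 10000 bp for it, and the caller keeps the largest of the local and genome-wide values. A value can therefore be a mean over a window rather than the overlap at the summit. The median background at cocaine peaks was 1.09 in the interval, in the rest of the chromosome and in the whole list, which stands for 3.0 input fragments. That is the first whole number of fragments above the floor of 2.74, so equal medians say little. At the floor itself stood 37.0% of cocaine peaks in the interval, 40.2% in the rest and 40.6% in the whole list. A background of 10 times the genome-wide level or more was found at 1 of 559 cocaine peaks (0.179%, 0.0316 to 1.01), against 44 of 1041 (4.23%) in the rest and 3.52% of the whole list. At 3 times or more, there were 42 peaks (7.51%) in the interval, 101 (9.70%) in the rest and 8.64% in the whole list. With only peaks under 10 times background counted, 558 in the interval and 997 in the rest, the density ratio was 4.68.

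The share of peaks on raised input was higher in the first 3 Mb than in the last. In the first 3 Mb, 12 of 59 cocaine peaks (20.3%, 12.0 to 32.3) stood at 3 times background or more, and in the last 3 Mb 30 of 500 did (6.00%, 4.23 to 8.44). The median pileup was 29 in the first 3 Mb and 22 in the last 3 Mb, and the median folds were 9.19 and 8.96. Of the 12 peaks, 6 lay in a single cluster of 25 peaks, and 6 were among the other 34 peaks of the first 3 Mb. That cluster, chr20:1956643-1984902 in the second megabase, had the highest median background of the clusters with 5 peaks or more, 2.55. Its 25 peaks had a median pileup of 47, the highest among the 19 large clusters, and a median fold of 12.1. The clusters chr20:3410712-3437660 and chr20:4806447-4824953 followed with median backgrounds of 1.82 and 1.64. All 19 large clusters of the interval had a median background under 3, as had 17 of the 20 in the rest.

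**Figure D4:**
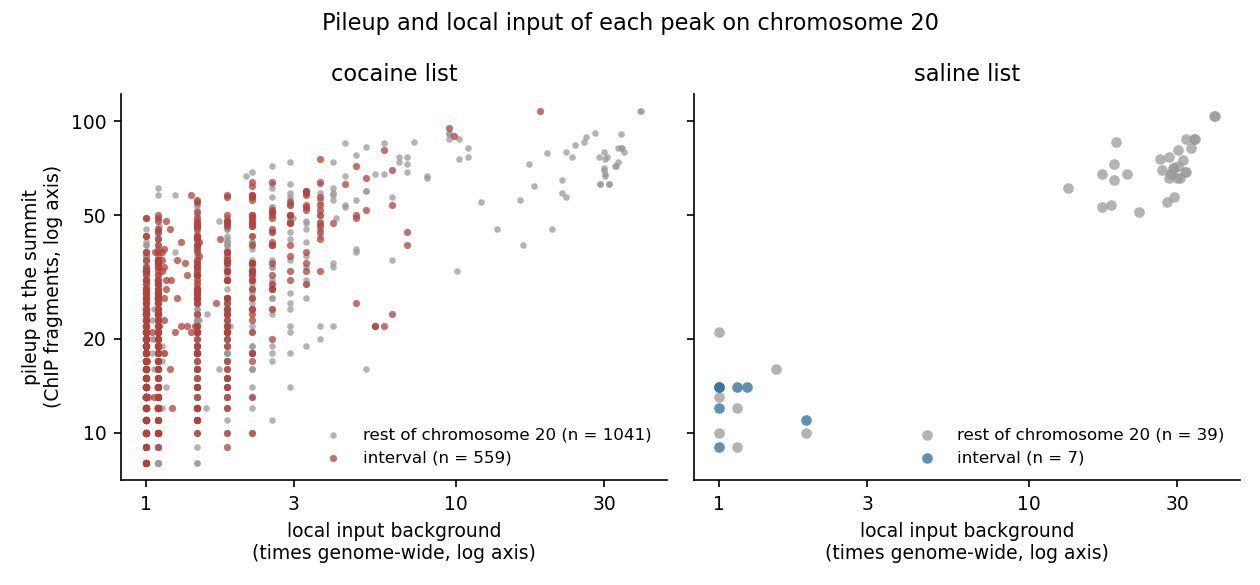
Pileup at the summit (y axis, ChIP fragments, log scale) against local input background (x axis, multiples of the genome-wide level, log scale) for every peak of chromosome 20, with the cocaine list on the left and the saline list on the right. Coloured points are the 559 and 7 peaks of the interval and grey points the rest; the saline peaks of the interval all lie at backgrounds of 1.0 to 1.91, while 32 of the 39 grey saline points lie above 10.

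The 3 highest backgrounds lay in 1 short stretch, singled out after its values were seen. In the cluster chr20:3410712-3437660, 5 neighbouring cocaine peaks over 3.12 kb stood on 16.0 to 51.0 input fragments, 5.84 to 18.6 times the genome-wide level, and had pileups of 54 to 108. The other 12 peaks of the cluster stood on 2.86 to 7.00 input fragments and had pileups of at most 41. The highest background of the interval was that of chr20:3424982-3425732, a peak of 751 bp with a pileup of 108, the highest value that can occur in the cocaine list once duplicate tags are removed. Its fold was 4.77. Its neighbours chr20:3422614-3422742 and chr20:3424699-3424859 had backgrounds of 9.85 and 9.49, pileups of 90 and 95, and folds of 7.24 and 7.91. Outside this stretch, chr20:4894096-4894158 and chr20:155369-155449 were next, both at 6.93 times background, with folds of 4.48 and 4.92.

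Saline peaks were few in the interval, but they were of the kind that is the minority in the saline list. All 7 stood on low input, at 1.0 to 1.91 times the genome-wide level, so 0 of 7 (0 to 35.4%) were at 10 times or more. In the rest of the chromosome 32 of 39 saline peaks (82.1%, 67.3 to 91.0) were, and 80.8% of the whole saline list. Their pileups of 9 to 14 were below the median of 68 in the rest, and their folds of 4.16 to 7.55 were above the median of 2.64 there. The 7 saline peaks of the rest under 10 times background had pileups of 9 to 21 and folds of 3.82 to 11.1. Those ranges include the values of the interval, so low pileup and higher fold were not particular to it. Counting every saline peak, the density was 1.17 per Mb in the interval and 0.777 per Mb in the rest, a ratio of 1.5 (0.685 to 3.29) whose interval includes 1. Counting peaks under 10 times background, it was 7 in 6 Mb against 7 in the whole rest, 0.139 per Mb, a ratio of 8.37 (3.06 to 22.8). The 7 saline peaks of the interval are not independent sites, although that range counts them as such. Merging peaks less than 500 bp apart left 5 of them, and a pair among these, described below, carried identical values. Over all peaks, the cocaine list had 79.9 times as many as the saline list in the interval and 26.7 times as many in the rest. Over peaks under 10 times background the order was the opposite, 79.7 times in the interval and 142 times in the rest.

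Each saline peak lay wholly inside a cocaine peak. By the weaker measure of at least 1 shared base, 7 of 7 saline peaks (100%, 64.6 to 100) overlapped a cocaine peak, beside 34 of 39 in the rest and 79.7% of the whole saline list. Among saline peaks under 10 times background, the class of all 7, it was 5 of 7 in the rest and 341 of 452 in the whole list. Seen from the other side, a saline peak was met by 5 of the 559 cocaine peaks (0.894%, 0.383 to 2.08), against 34 of 1041 (3.27%) in the rest and 2.51% of the whole cocaine list. Among cocaine peaks under 10 times background it was 4 of 558, and 0.366% in the whole list. The 5 cocaine peaks belonged to 5 different large clusters, all in the last 3 Mb. With at least 50% of both peaks required to overlap, 1 of the 7 saline peaks remained paired, since the cocaine peaks were the longer ones.

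The saline peak chr20:3342163-3342319 had 11 fragments at its summit and a fold of 4.16, and the cocaine peak around it, chr20:3342143-3342429, had a pileup of 22 fragments and a fold of 7.32. It lay in the cluster with most cocaine peaks. The saline peaks chr20:4818235-4818377, with 12 fragments at its summit and a fold of 6.55, and chr20:4818445-4818531, with 9 fragments and a fold of 5.04, were both inside chr20:4818101-4818569. That cocaine peak had a pileup of 23 fragments and a fold of 11. At these 3 the input stood within 2 times the genome-wide level in both pools.

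The saline peaks chr20:3425023-3425105 and chr20:3425200-3425264 had a pileup of 14 each and folds of 7.04 and 6.78. Both lay inside the cocaine peak of deepest input, chr20:3424982-3425732. At the saline summits the saline input background was at 1.15 and 1.23 times its genome-wide level, 3.0 and 3.22 fragments. The cocaine input of 51.0 fragments was that at the cocaine summit, 59 and 203 bp from the saline summits. The inputs were thus not read at the same base. The pooled inputs had nearly the same depth, with a ratio of 1.01 for cocaine over saline, and the pooled ChIP depths had a ratio of 1.15.

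The remaining saline peaks, chr20:3918266-3918420 and chr20:5261472-5261626, carried identical values although they lay 1343 kb apart. Each was 155 bp long with a pileup of 14, a fold of 7.55 and a background of 1.0. The cocaine peaks around them were nearly identical too. The first, chr20:3917404-3918479, was 1076 bp long with a fold of 12.8 and a pileup of 50, and the second, chr20:5261403-5262488, was 1086 bp long with a fold of 12.5 and a pileup of 49. Both had a background of 2.55 on 7.00 input fragments, and their summits were each 803 bp from the summit of the saline peak inside.

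The likeness extended over the whole clusters around these peaks, in mirrored order. This and the pairs that follow were sought after the values of the saline peaks were seen. The cluster chr20:3910596-3920909 had 16 cocaine peaks over 10.3 kb and the cluster chr20:5258981-5269290 had 17 over 10.3 kb. Start of the one and end of the other saline peak add up to 9179892. When the second cluster was turned round by that sum, 16 of 16 and 17 of 17 peaks overlapped a peak of the other cluster. Of 16 matched peaks, 9 had summits within 12 bp of each other and 9 had pileups within 2 fragments, although the largest pileup gap was 29. The limit of 12 bp equals the largest summit gap that it admitted. Matching was not one to one: chr20:5268665-5269290 was the partner of both chr20:3910596-3910845, with the gap of 29, and chr20:3910961-3911231, with equal pileups of 50. Equal pileups occurred in 4 of the 16, and equal lengths in 0. Peaks covered 40.9% of the first cluster and 42.2% of the second, and how many overlaps such coverage gives at other alignments was not tested.

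Further recurrences ran in the same direction. The peaks of chr20:2699971-2701608 and chr20:4877935-4879581, 2178 kb apart, were 5 each and all 5 had a partner at the same spacing. Lengths of 55, 611 and 251 bp occurred in both stretches, 4 of 5 pileups were equal and the other one differed by 1 fragment. The 3 peaks of chr20:5780594-5783919 recurred at chr20:6545935-6549260, 765 kb further on and outside the interval. There the lengths of 161, 114 and 63 bp, the pileups of 24, 28 and 21 and the folds of 11.5, 13.3 and 7.00 were the same in both stretches. The alignment names in the headers speak of unique reads, and whether these stretches repeat each other in sequence was not tested. Counting 1 stretch of each pair inside the interval removed 22 peaks and left 537, with a density ratio of 4.32.

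**Figure D5:**
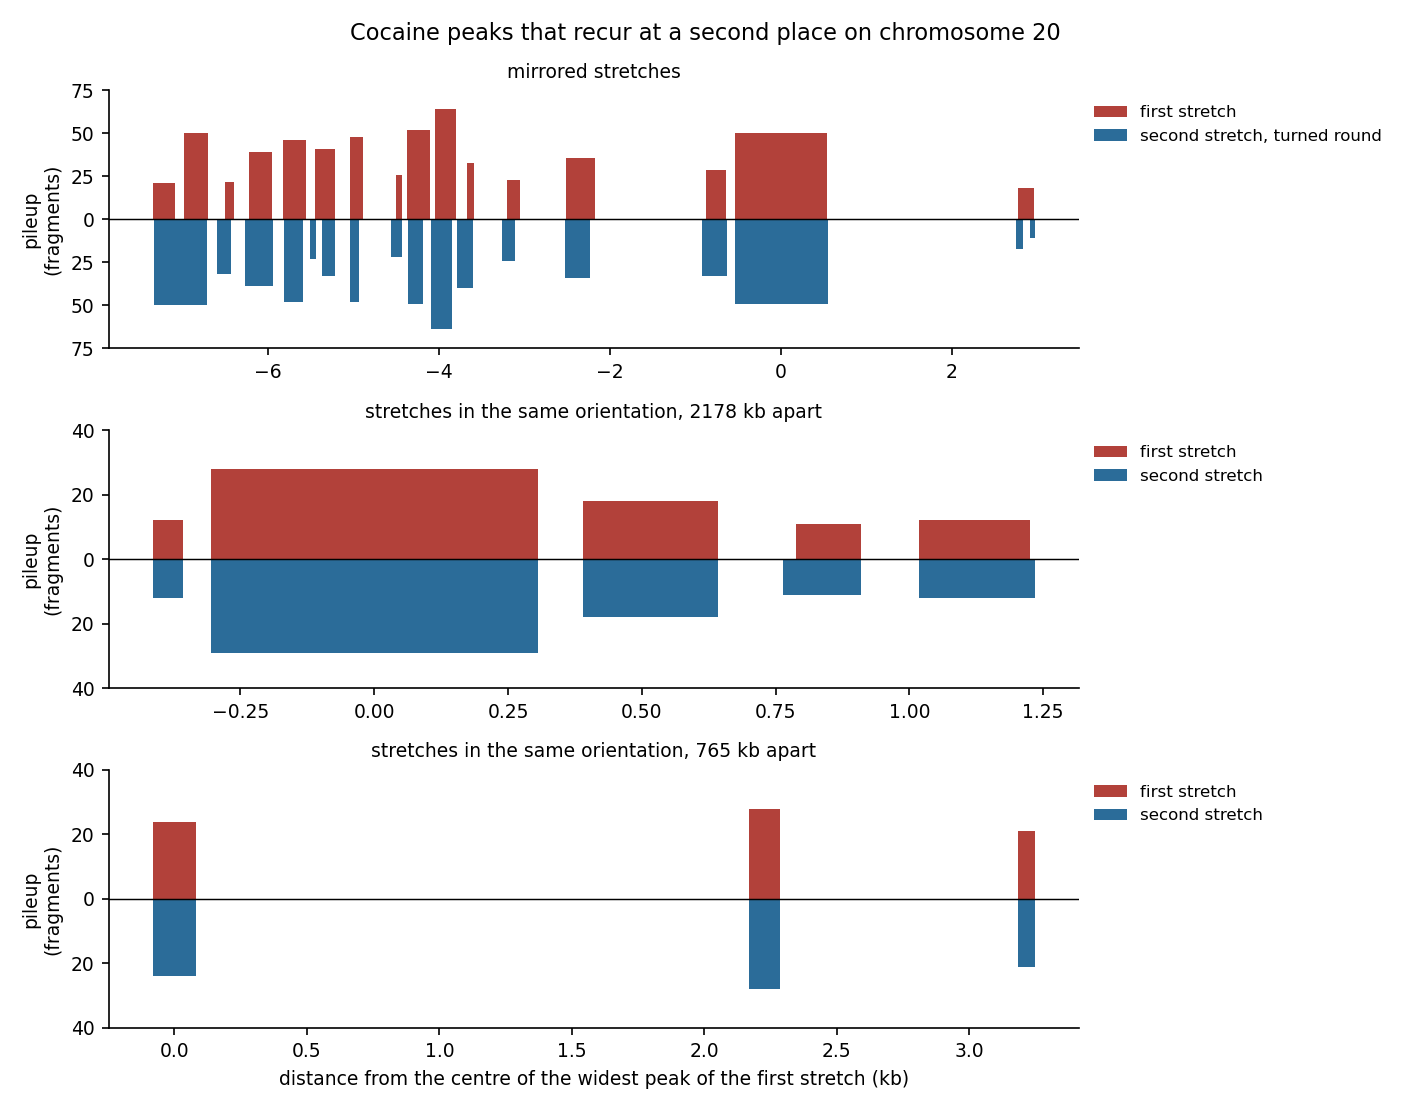
Pileup of cocaine peaks (y axis, fragments) in stretches whose peak pattern recurs, drawn upwards for the first stretch and downwards for the second, after turning it round (top panel) or shifting it (the other panels). The x axis is the distance in kb from the centre of the widest peak of the first stretch; peaks face a partner in all 3 panels, and the bottom pair has the same pileups of 24, 28 and 21.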

How the data were processed

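INO80 ChIP and input DNA from nucleus accumbens were sequenced in 24 libraries. The authors called peaks with MACS 2.0.10.20131216 on the pooled samples of each treatment, at a q-value of 0.05 with 1 tag kept per position, per the file headers. The pools held 43489910 cocaine and 37905014 saline ChIP tags, and 101490635 and 100697179 input tags; depth per sample was not used here. Per the submitters' processing notes the genome build is rn6. No aligner was named in the labels or headers. Each deposited list gives the pileup signal at the summit, the fold (a ratio to local input, scaled by depth within each pool), and −log10 of the p-value and q-value of each peak. Duplicate removal caps the pileup signal at 108 for cocaine and 104 for saline.

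The local background was recovered as (pileup + 1) / fold − 1 and divided by the genome-wide level, 1.17 cocaine and 0.986 saline fragments. The −log10 p recomputed from it differed from the deposited value by at most 6.3e-05. Input fragments undo the depth scaling of 0.429 and 0.376, and can be window means. Overlap meant at least 1 bp. Clusters joined peaks less than 10 kb apart. Shares carry Wilson 95% intervals, and medians carry order-statistic intervals. Chromosome 20 was taken to end at its last peak. Python 3.11.15, numpy 2.4.6, pandas 2.3.3, scipy 1.17.1 and matplotlib 3.10.9 were used, and the steps were tested on simulated data.

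Named are all saline peaks, the 10 cocaine peaks of highest fold, the 5 of highest background, those overlapping a saline peak, the 5 largest clusters, the 3 of highest median background, the 5 fullest bins and the 3 longest gaps, with ties by position. The interval, the background limits and these rules were chosen with earlier results of these data known. Recurring stretches needed 3 peaks or more of equal length at 1 exact shift with pileups within 2 fragments, searched against the whole cocaine list; the mirrored pair was found from its saline peaks. Alternatives were a −log10 q-value of 3 or more, merged peaks, other ends, bins, gaps and overlaps, and each background class apart. Counting 1 stretch of each recurring pair was added after seeing the data.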

Additional observations from a re-analysis of the deposited data

Results flagged for a closer look

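The input itself was deep in the cocaine pool at 1 stretch, and the saline input at the summits of nearby saline peaks was low. At the summit of the cocaine peak chr20:3424982-3425732 the cocaine input reached 51.0 overlapping fragments, where the genome-wide level is 2.74 fragments. The saline input background at the saline summits inside that peak, 59 and 203 bp away, stood at 3.0 and 3.22 fragments. The 4 other peaks of this stretch of 3.12 kb stood on 16.0 to 27.0 cocaine input fragments. The saline input background was recovered only at the summits of saline peaks. There it is no lower than the means over windows of 1000 and 10000 bp, which take in the deepest cocaine summit. The low saline values thus limit the mean saline input around that summit, but not the input at single bases. No saline value was obtained at the base of the deepest cocaine summit or at the summits of those 4. This was singled out because input is outside the main measurement, and its cause was not tested.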

How the results depend on the processing

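Of 43 recomputed values of 10 results, 31 stayed close to their main value, 10 moved and 2 turned direction. Close means within 1.5 times for a count and within the 95% interval for a share, ratio or median. Merging peaks under 500 bp apart gave 271 cocaine peaks, a cocaine density ratio of 2.88 and 9 large clusters. Ending the interval at 5 Mb gave 331 cocaine peaks and a ratio of 2.67. Peaks at 10 times background or more gave density ratios of 0.190 for cocaine, from 1 peak, and 0 for saline, from none, and saline peaks under that limit gave 8.37. A reciprocal overlap of 50% lowered the overlapping shares to 14.3% of saline and 0.179% of cocaine peaks, and counting edges within 1 kb raised the cocaine share from 0.894% to 1.97%. Bins of 50 and 200 kb were empty in 55.0% and 16.7% of cases. The median background stayed at 1.09 and the median pileup at 22 to 23 under every alternative run. Counting 1 stretch of each recurring pair left 537 cocaine peaks and a ratio of 4.32.

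No paired analysis was possible because each list pools its samples and its columns carry no replicate. Leaving out a library was not possible either. Counts this low in the saline list limit every saline value: 0 of 7 peaks at deep input still allows a share of up to 35.4% by the Wilson interval. Peak width and number depend on the caller's fragment length of 54 and 52 bp, which is close to the tag size of 51 bp.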
